A study of Mus musculus with 14 samples.

Results

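The genes described here are 10 regulators of the G1 phase of the cell cycle: the D-type cyclin genes Ccnd2 and Ccnd3, the E-type cyclin genes Ccne1 and Ccne2, the cyclin-dependent kinase (CDK) genes Cdk2, Cdk4 and Cdk6, and the CDK inhibitor genes Cdkn1a, Cdkn1b and Cdkn2c. They were taken by symbol through the platform annotation, with the probe set of highest mean over all 14 arrays kept for each gene. Probe sets annotated with 1 symbol were found for 9 of the 10, among 19937 genes in all. The only probe set of Cdkn1a, the p53-induced inhibitor of cyclin E and cyclin A kinases, also carries the symbol 4930567H12Rik, so no value is given for Cdkn1a. All 9 measured genes passed the filter on low values, a log2 value above 6.76 on at least 2 arrays, as did 13641 genes of the series.

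Sorted T cells of C57BL/6 mice labelled ENK KO or wild type (WT) were profiled on 1 array per sample. CD8+ T cells, from which cytotoxic cells arise, were sorted out of the spleen of ENK KO mice (n = 5, aged 2, 2, 6, 7 and 9 months) and WT mice (n = 4, all aged 7 months). CD4+CD8+ thymocytes, the stage that rearranges the T cell receptor alpha chain, came from the thymus of ENK KO mice (n = 2, aged 2 and 7 months) and WT mice (n = 3, all aged 7 months). No label says whether each array stands for 1 animal or a pool, so the p-values below measure the spread between these samples. The labels neither spell out ENK nor give the allele, the cells in which it acts or any treatment, and the series title names Engrailed-2 and T cell blast crisis of chronic myelogenous leukaemia. Each ENK KO animal aged 2 months was labelled female and the other ENK KO animals male, while each WT group held 1 sample labelled female.

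In G1, cyclins D2 and D3 activate CDK4 and CDK6, which phosphorylate the retinoblastoma protein and its relatives and so release E2F transcription factors. E2F factors switch on the E-type cyclins, which drive CDK2 and entry into S phase. The product of Cdkn2c binds CDK4 and CDK6 and keeps D-type cyclins off them, and the product of Cdkn1b inhibits cyclin E-CDK2 and holds resting T cells out of the cycle. In the thymus, cyclin D3 is known for its need in the expansion that leads to the CD4+CD8+ stage. CD4+CD8+ cells are a mixture of cycling blasts and a majority of small resting cells, and most splenic CD8+ cells are resting.

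Defining transcripts of the sorted populations were present on 13 arrays. On the remaining one, labelled spleen ENK KO replicate 28, the co-receptor genes went against the label, with Cd4 at 12.20, Cd8a at 6.78 and Cd8b1 at 9.10, against 6.61 to 6.81 for Cd4, at least 12.36 for Cd8a and at least 13.20 for Cd8b1 on the other spleen ENK KO arrays. Its Foxp3 and Il2ra, genes of regulatory T cells, were at 9.87 and 11.14, against at most 7.44 and 7.03 on those arrays. The mean of 6 regulatory T cell markers was 10.1 on it and 8.07 to 8.43 on spleen WT arrays. Spleen ENK KO results of the 9 genes are therefore given with and without it. For the pathway genes named further on, leaving it out moved the spleen minus thymus difference in ENK KO by at most 0.15 and the ENK KO minus WT difference in spleen by at most 0.15, both for Trp53inp1. Of 7 measured markers of CD4+CD8+ thymocytes, all 7 were above the filter level on each thymus array and 3 on each spleen array. The library labelled spleen WT replicate 22, labelled female, had an Xist value of 5.90, while the 4 remaining female-labelled arrays had 12.36 to 13.37. Y-linked transcripts were high on replicate 22, with 10.17 for Eif2s3y, 9.85 for Kdm5d and 9.69 for Uty. Those 4 arrays had at most 4.46, 6.41 and 5.30. The label of replicate 22 thus disagrees with its sex-linked transcripts. Xist was at most 5.90 on all spleen WT arrays, while spleen ENK KO replicates 6 and 3 had 12.55 and 12.36. Array medians lay between 7.14 and 7.25. Values below are log2 expression values, in which a difference of 1 is a doubling. Levels of different genes are not set against each other, since each probe set has its own affinity.

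Promoter windows show which of these genes carry, near their start, letters like those bound by factors of this pathway. RefSeq windows of 300 bases (250 before the gene start and 50 after, build GRCm38.p6) were listed for 8 of the 10 genes, in 11 windows. Those of Cdk2, Cdk6 and Cdkn1b are shown because these genes are lower in spleen than in thymus and have 1 window each, and that of Cdk4 because this kinase gene is higher in spleen. Capitals mark E2F-type letters (TTTCCCGC, TTTGGCGC, TTTCGCGC or TTTGCCGC on either strand) and the E-box CACGTG, which is the same on both strands and is bound by MYC and its relatives.
Cdk2, chr10:128705002-128705301, minus strand: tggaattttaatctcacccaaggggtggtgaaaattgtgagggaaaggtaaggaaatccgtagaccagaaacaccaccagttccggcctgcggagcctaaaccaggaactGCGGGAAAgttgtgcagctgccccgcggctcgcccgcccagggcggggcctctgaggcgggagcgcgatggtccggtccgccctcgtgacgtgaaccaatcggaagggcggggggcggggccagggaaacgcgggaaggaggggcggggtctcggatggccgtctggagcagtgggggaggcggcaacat
Cdk6, chr5:3343643-3343942, plus strand: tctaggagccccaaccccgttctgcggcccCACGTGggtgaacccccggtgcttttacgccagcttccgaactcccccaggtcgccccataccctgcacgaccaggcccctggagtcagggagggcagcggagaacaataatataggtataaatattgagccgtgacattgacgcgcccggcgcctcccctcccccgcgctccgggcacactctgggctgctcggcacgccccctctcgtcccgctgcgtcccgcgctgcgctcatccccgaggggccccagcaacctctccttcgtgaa
Cdkn1b, chr6:134920151-134920450, plus strand: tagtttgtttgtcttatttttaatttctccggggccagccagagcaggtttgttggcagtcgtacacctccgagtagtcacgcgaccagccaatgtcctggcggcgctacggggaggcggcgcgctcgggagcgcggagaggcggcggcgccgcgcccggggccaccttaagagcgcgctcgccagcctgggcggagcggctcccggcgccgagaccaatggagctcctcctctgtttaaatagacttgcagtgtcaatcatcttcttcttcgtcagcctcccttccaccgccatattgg
Cdk4, chr10:127063285-127063584, plus strand: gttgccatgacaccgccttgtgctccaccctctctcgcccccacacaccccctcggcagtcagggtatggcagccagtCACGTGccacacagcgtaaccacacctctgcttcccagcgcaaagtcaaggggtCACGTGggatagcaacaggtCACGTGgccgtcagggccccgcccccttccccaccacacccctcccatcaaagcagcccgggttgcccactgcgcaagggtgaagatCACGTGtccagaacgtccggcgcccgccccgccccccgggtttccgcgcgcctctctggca

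The Cdk4 window held the E-box 4 times, a count of 4 or more that 8 of 32851 windows reach (0.0244%), while 7.15% of windows hold it at least once. The Cdk6 window and the downstream of the 2 Cdkn2c windows held it once each. E2F-type letters were found in the Cdk2 window (GCGGGAAA, the reverse complement of TTTCCCGC) and in none of the other 10 windows of these genes, and 2.26% of all windows hold such letters. The cell cycle homology region, searched as TTTGAA or TTCGAA on either strand, was in none of the 11 windows and in 19.2% of all windows. Such a match describes the letters and shows no binding, and its absence shows only that these letters are not in the window.

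**Figure D1:**
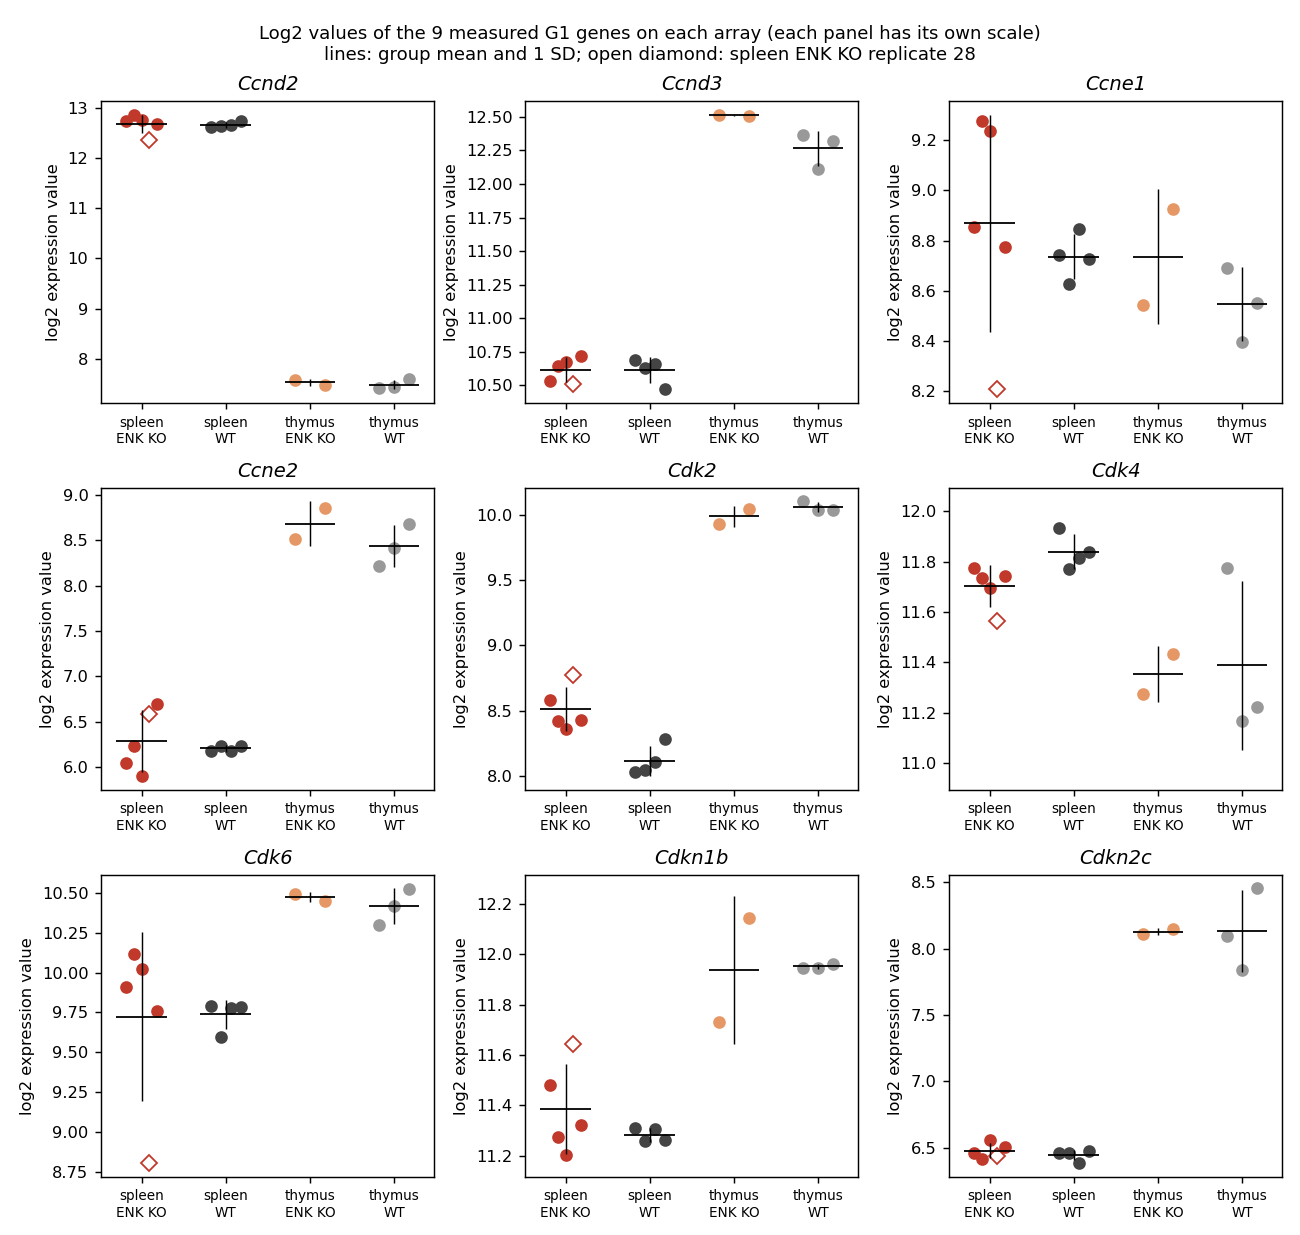
Log2 expression values of the 9 measured genes on each of the 14 arrays, with each gene on its own vertical scale. Points are arrays, lines the group mean and 1 SD, and the open diamond marks spleen ENK KO replicate 28. Ccnd2 lies near 12.7 on spleen arrays and near 7.5 on thymus arrays, while Ccnd3, Ccne2, Cdk2 and Cdkn2c lie higher on thymus arrays.

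Splenic CD8+ cells and CD4+CD8+ thymocytes differed in their D-type cyclin transcripts, in ENK KO and in WT mice. Ccnd2 was 35.4-fold higher in spleen than in thymus of ENK KO mice and 36.1-fold higher in WT mice, whereas Ccnd3 was lower in spleen in both. Of the 9 genes, 8 differed between spleen and thymus in each genotype by limma at an adjusted p under 0.05, with Ccnd2 and Cdk4 higher in spleen and Ccnd3, Ccne2, Cdk2, Cdk6, Cdkn1b and Cdkn2c lower. Such differences were common: 64.4% of all genes passed in ENK KO (27.4% higher, 37.1% lower) and 68.6% in WT (30.5% higher, 38.2% lower), so the count itself is not particular to these genes. It includes Ccne2 and Cdkn2c, which passed the filter only through thymus, where they are high. The median absolute log2 difference over the 9 genes was 1.47 in ENK KO and 1.65 in WT, against 0.30 and 0.31 over all 13641 genes. With Ccne2 and Cdkn2c, whose spleen values lie under the filter level, set against that level instead, the medians over the 9 genes were 1.37 in ENK KO and 1.37 in WT. In RNA of sorted bulk samples, fewer cells that express a gene and less RNA per cell cannot be told apart.

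The D-type cyclins moved in opposite directions. Ccnd2, which encodes cyclin D2, was at 12.68, 12.85, 12.37, 12.76 and 12.73 on the spleen ENK KO arrays (replicates 31, 6, 28, 25 and 3) and at 12.74, 12.65, 12.65 and 12.61 on the spleen WT arrays (replicates 40, 37, 34 and 22). On thymus arrays it was at 7.49 and 7.58 in ENK KO (replicates 29 and 1) and at 7.59, 7.42 and 7.45 in WT (replicates 38, 7 and 32). No spleen array came within 4 log2 units of a thymus array, and the genotypes overlapped in each tissue. The spleen minus thymus difference was 5.14 in ENK KO (SE 0.10, limma adjusted p = 6.59e-13) and 5.17 in WT (SE 0.09, adjusted p = 2.44e-13). Without spleen ENK KO replicate 28, the lowest spleen array, the ENK KO difference was 5.22, and in that fit 8 of the 9 genes passed between spleen and thymus of ENK KO mice, against 65% of all genes.

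Ccnd3, which encodes cyclin D3, was at 10.72, 10.65, 10.51, 10.67 and 10.53 on the spleen ENK KO arrays and at 10.47, 10.66, 10.63 and 10.69 on the spleen WT arrays. In thymus it was at 12.51 and 12.52 in ENK KO and at 12.32, 12.36 and 12.11 in WT. The order of the group means was thymus ENK KO, thymus WT, then both spleen groups, which were equal to within their SD (10.62 ± 0.09 in spleen ENK KO, n = 5, and 10.61 ± 0.10 in spleen WT, n = 4). Spleen minus thymus was -1.90 in ENK KO (SE 0.08, limma adjusted p = 5.46e-10), a 3.72-fold lower level in spleen (-1.87 without replicate 28), and -1.65 in WT (SE 0.07, adjusted p = 6.14e-10), a 3.14-fold lower level.

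The E-type cyclins differed from each other. Ccne2, which encodes cyclin E2, was at 6.70, 6.23, 6.59, 5.90 and 6.04 on the spleen ENK KO arrays and at 6.24, 6.18, 6.24 and 6.17 on the spleen WT arrays. In thymus it was at 8.86 and 8.51 in ENK KO and at 8.68, 8.22 and 8.41 in WT. All 9 spleen values lay under 6.76, the filter level, near which background weighs on the signal, so Ccne2 passed the filter through thymus and its spleen level is a bound. Set against the filter level, Ccne2 was at least 3.80-fold lower in spleen of ENK KO mice and at least 3.20-fold lower in WT mice. The differences of the measured values were -2.39 in ENK KO (SE 0.19, limma adjusted p = 2.08e-07; -2.47 without replicate 28) and -2.23 in WT (SE 0.17, adjusted p = 1.34e-07). Ccne1, which encodes cyclin E1, was at 8.77, 9.28, 8.21, 9.24 and 8.85 in spleen ENK KO and at 8.72, 8.85, 8.63 and 8.74 in spleen WT. Its thymus values were 8.93 and 8.54 in ENK KO and 8.55, 8.69 and 8.39 in WT. The arrays of spleen and thymus overlapped in each genotype, and the spleen minus thymus difference did not pass the test in ENK KO (0.13, 95% interval -0.35 to 0.62, limma adjusted p = 0.618) or in WT (0.19, interval -0.26 to 0.64, adjusted p = 0.428). Ccne1 also had a wide spread in spleen ENK KO, with an SD of 0.43 against 0.09 in spleen WT, and replicate 28 was its lowest array. Without that library the ENK KO difference was 0.30 (interval -0.03 to 0.63, limma adjusted p = 0.101).

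Among the kinases, Cdk2, the partner of the E-type cyclins, was far lower in spleen. It was at 8.43, 8.43, 8.78, 8.36 and 8.58 on the spleen ENK KO arrays and at 8.28, 8.11, 8.04 and 8.03 on the spleen WT arrays. Thymus arrays had 10.04 and 9.93 in ENK KO and 10.04, 10.10 and 10.04 in WT, at least 1 log2 unit above every spleen array. The spleen minus thymus difference was -1.47 in ENK KO (SE 0.10, limma adjusted p = 4.75e-08; -1.54 without replicate 28) and -1.94 in WT (SE 0.09, adjusted p = 1.16e-09).

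Cdk4 and Cdk6, the partners of the D-type cyclins, went opposite ways by small amounts. Cdk4 was at 11.74, 11.74, 11.56, 11.70 and 11.77 in spleen ENK KO and at 11.84, 11.82, 11.77 and 11.93 in spleen WT. In thymus it was at 11.43 and 11.27 in ENK KO and at 11.22, 11.77 and 11.17 in WT, so that WT replicate 7 reached the lowest spleen WT array. Cdk4 was higher in spleen by 0.35 in ENK KO (SE 0.13, limma adjusted p = 0.0301; 0.38 without replicate 28) and by 0.45 in WT (SE 0.12, adjusted p = 0.00412). The ENK KO call was lost without spleen replicate 3 (adjusted p = 0.053), thymus replicate 1 (adjusted p = 0.21) or thymus replicate 29 (adjusted p = 0.0533).

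Cdk6 was at 9.76, 10.11, 8.81, 10.02 and 9.91 in spleen ENK KO and at 9.79, 9.78, 9.60 and 9.79 in spleen WT. In thymus it was at 10.45 and 10.50 in ENK KO and at 10.53, 10.30 and 10.42 in WT, above all spleen arrays. It was lower in spleen by a log2 difference of -0.75 in ENK KO (SE 0.26, limma adjusted p = 0.0216) and -0.68 in WT (SE 0.24, adjusted p = 0.0212). Both SEs draw on a spread that includes replicate 28, the lowest array. Without it the difference was -0.52 in ENK KO (SE 0.10, adjusted p = 0.000434) and still -0.68 in WT (SE 0.08, adjusted p = 1.46e-05). With replicate 28 kept, leaving out a single thymus array ended the call while the difference stayed about as large. In ENK KO it was -0.73 without replicate 1 (limma adjusted p = 0.103) and -0.77 without replicate 29 (adjusted p = 0.0835), and in WT it was -0.68 without replicate 32 (adjusted p = 0.051) and -0.62 without replicate 38 (adjusted p = 0.0671).

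Both measured inhibitors were lower in spleen. Cdkn1b was at 11.32, 11.27, 11.65, 11.20 and 11.48 in spleen ENK KO and at 11.26, 11.31, 11.26 and 11.31 in spleen WT. In thymus it was at 12.14 and 11.73 in ENK KO and at 11.96, 11.95 and 11.95 in WT. The difference was -0.55 in ENK KO (SE 0.11, limma adjusted p = 0.000888; -0.62 without replicate 28) and -0.67 in WT (SE 0.10, adjusted p = 7.99e-05). A second Cdkn1b probe set, with values of 8.02 to 9.21, gave -0.62 and -0.62 (limma adjusted p = 0.00443 and 0.00213).

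Cdkn2c had 6.51, 6.42, 6.44, 6.56 and 6.46 in spleen ENK KO and 6.47, 6.39, 6.46 and 6.46 in spleen WT. In thymus it was at 8.15 and 8.11 in ENK KO and at 8.46, 8.10 and 7.84 in WT. All its spleen values lay under the filter level, so Cdkn2c too passed the filter through thymus. Set against that level it was at least 2.58-fold lower in spleen of ENK KO mice and at least 2.59-fold lower in WT mice. The differences of the measured values were -1.65 in ENK KO (SE 0.11, limma adjusted p = 4.18e-08; -1.64 without replicate 28) and -1.69 in WT (SE 0.10, adjusted p = 1.12e-08).

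**Figure D2:**
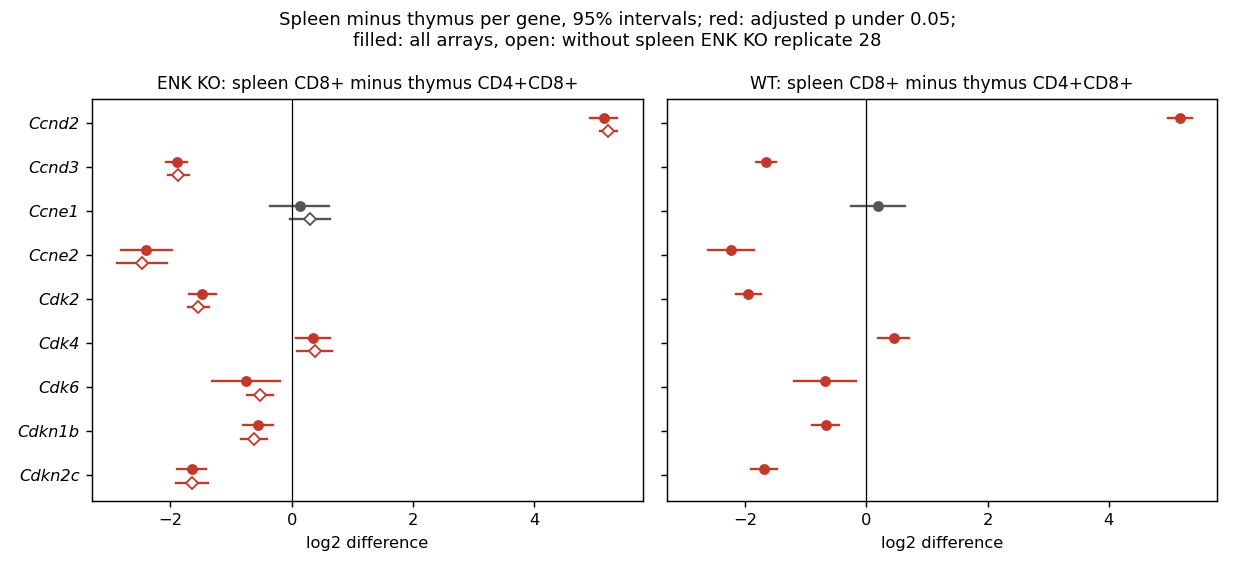
Spleen CD8+ minus thymus CD4+CD8+ log2 difference of the 9 genes in ENK KO (left) and WT (right), with 95% intervals from limma. Filled points use all arrays, and red marks an adjusted p under 0.05. Open diamonds, drawn in the ENK KO panel only, leave out spleen ENK KO replicate 28. Ccnd2 stands near 5 in both genotypes, Ccne1 crosses 0, and the other genes but Cdk4 lie below 0.

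Most markers of dividing cells were lower in spleen. Of 15 tested S, G2 and M phase cyclins and proliferation markers, 12 were lower and 1, Cdt1, higher in spleen of ENK KO mice. In WT mice 10 were lower and 1, again Cdt1, higher. Without replicate 28, 11 of the 15 were lower in ENK KO. Of all genes 37.1% were lower and 27.4% higher in ENK KO, and 38.2% lower and 30.5% higher in WT. Ccna2, the cyclin of S phase and G2, had spleen means under the filter level (6.58 in ENK KO and 6.69 in WT) and was, set against that level, at least 9.15-fold lower in spleen of ENK KO mice and at least 6.35-fold lower in WT mice. Mki67, a marker of cycling cells, differed by -3.33 and -2.89 (SE 0.20 and 0.18). Top2a, a topoisomerase of dividing cells, differed by -3.04 in ENK KO (-2.40 with its probe sets averaged), with a spleen mean of 6.76, at the filter level. Ccnb2, a cyclin of mitosis, differed by -2.92 in WT. The part of these markers in the differences of the G1 genes was not tested.

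Most genes of the retinoblastoma and E2F branch were lower in spleen. Of 18 pocket proteins, E2F factors and DREAM subunits, 14 were lower and 3 higher (Rbl1, E2f5 and E2f6) in spleen of ENK KO mice. In WT mice 14 were lower and 4 higher, the same 3 and Lin54. Of all genes 37.1% were lower in ENK KO and 38.2% in WT. The list median was -0.55 in ENK KO and -0.52 in WT, against -0.06 and -0.04 over all genes. E2f2, an activating E2F factor, differed by -2.68 in ENK KO and -2.59 in WT. E2f8, a repressive E2F factor that does not bind pocket proteins, had spleen means under the filter level and was at least 4.26-fold lower in ENK KO and at least 3.09-fold lower in WT. E2f5 and E2f6 were higher by 0.65 and 0.56 in ENK KO and by 0.73 and 0.53 in WT. Tfdp2, a dimer partner of E2F factors, differed by -1.26 and -1.55. Limma adjusted p-values of E2f2 and Tfdp2 were at most 1.20e-08.

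Of 18 upstream regulators 5 were higher and 9 lower in spleen of ENK KO mice, where 27.4% of all genes were higher and 37.1% lower. In WT mice 7 were higher and 9 lower, where 30.5% of all genes were higher and 38.2% lower. The 5 higher in ENK KO were Myc, Foxo1, Klf2, Notch1 and Tgfbr2, and Klf4 and Btg1 were added to them in WT. Myc, a factor that drives growth and G1 progression, was higher by 2.85 in ENK KO and 3.02 in WT. Klf2, a factor of resting T cells, was higher by 2.75 and 2.83, and Tgfbr2, a receptor of the growth-arresting cytokine TGF-beta, by 1.86 and 1.82.

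Parts of the ubiquitin ligases that degrade G1 regulators were lower in 8 of 14 and higher in 2 (Rnf123 and Fbxo4) in each genotype. The shares over all genes were 37.1% lower and 27.4% higher in ENK KO, and 38.2% lower and 30.5% higher in WT. Cks1b, the cofactor with which SKP2 recognises the Cdkn1b product, differed by -1.36 in ENK KO and -1.11 in WT. Dtl, the substrate receptor for the Cdkn1a product and Cdt1, had spleen means under the filter level and was at least 5.41-fold lower in ENK KO and at least 4.19-fold lower in WT, and Fbxo4, an F-box protein, differed by 0.76 and 0.74. Of 12 other G1 cyclins, CDK inhibitors and activators 9 were lower and 1, Cdkn2b, higher in each genotype, against those shares of all genes. Cdkn3, a phosphatase that acts on CDK2 and lay under the filter level in spleen, was at least 1.72-fold lower in ENK KO and at least 1.80-fold lower in WT. Ccng2, a cyclin of resting cells, differed by -1.92 and -1.87, and Mnat1, an assembly factor of the CDK-activating kinase, by -0.69 and -0.81. Ccnd1, the remaining D-type cyclin gene, did not pass, with differences of 0.0053 in ENK KO (limma adjusted p = 0.933) and 0.0039 in WT (adjusted p = 0.945).

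Of 12 tested genes of the p53 pathway, 5 were lower in spleen of ENK KO mice and 4 higher, and 7 were lower and 4 higher in WT mice. The ENK KO counts are near the shares of all genes, 37.1% lower and 27.4% higher, and without replicate 28 there were 3 higher. In WT 38.2% of all genes were lower and 30.5% higher, so the 7 of 12 lower lie above that share. The 4 higher were Bbc3, Pmaip1, Aen and Tnfrsf10b, and the 5 lower in ENK KO were Mdm2, Mdm4, Ccng1, Gadd45a and Trp53inp1. Trp53inp1, a stress-induced regulator of p53, differed by -2.29 in ENK KO and -2.46 in WT. Mdm2, the ligase that degrades p53, differed by -0.75 and -0.73, and its relative Mdm4 by -0.65 and -0.57.

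**Figure D3:**
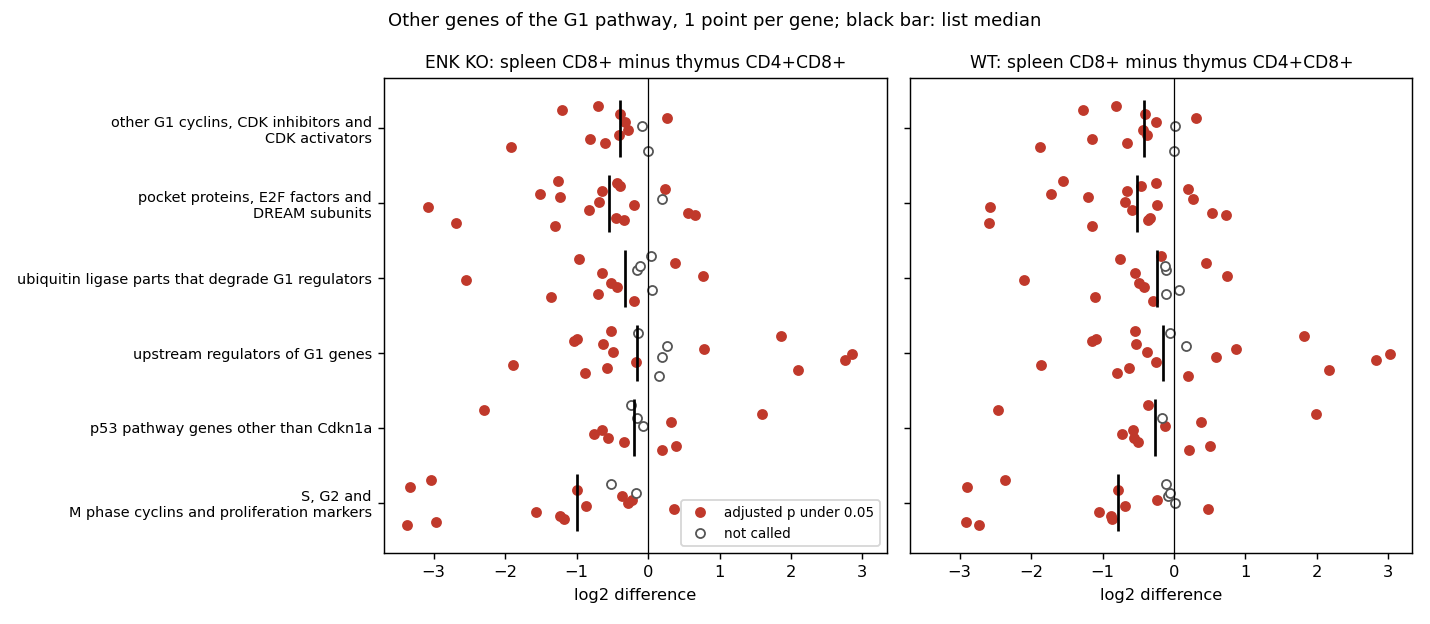
Spleen minus thymus log2 difference of each tested gene in 6 lists of the G1 pathway, in ENK KO (left) and WT (right). Red points had an adjusted p under 0.05, open points did not, and the black bar is the list median. Most points lie below 0, and the rightmost points among upstream regulators are Myc and Klf2.

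Within each population, ENK KO and WT cells differed by at most 0.40 log2 units in any of the 9 genes, and none passed the test in spleen or thymus. In spleen limma called 0 of the 9, against 0.00733% of all genes, with 1 of the 9 (Cdk2) at an unadjusted p under 0.05, against 8.37% of all genes. Over the 9 genes the median ENK KO minus WT difference was 0.03, against -0.01 over all genes.

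Cdk2 was the gene that came closest. Every spleen ENK KO array (8.36 to 8.78) lay above every spleen WT array (8.03 to 8.28), an order shown in the higher direction by 0.894% of all genes. The mean was 8.51 ± 0.17 (SD, n = 5) in ENK KO and 8.12 ± 0.12 (n = 4) in WT, a difference of 0.40 (SE 0.08, 95% interval 0.22 to 0.57), or 1.32-fold. Its unadjusted p in limma was 0.000331, the 7th smallest of 13641, and the adjusted p was 0.553, so that it did not pass over all genes. Without replicate 28, the highest of the ENK KO arrays, the groups still did not overlap and the difference was 0.33 (SE 0.06, interval 0.19 to 0.47, limma adjusted p = 0.433), and 2.13% of all genes then lay wholly higher. Platelet markers (5 of 6 measured) separated the same groups: their mean was 7.02 to 7.18 on spleen ENK KO arrays and 7.35 to 7.54 on spleen WT arrays, their summed linear signal 733 to 802 and 907 to 1064, with 3 or 4 of the 5 above the filter level on every spleen array. Their part in the Cdk2 difference was not tested.

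The genes of its E-type cyclin partners did not pass either. Ccne1 differed by 0.13 (95% interval -0.26 to 0.53) and Ccne2, under the filter level on all 9 arrays and so bounded by background there, by 0.08 (interval -0.25 to 0.42) in spleen, or 0.01 without replicate 28. Without replicate 28 Ccne1 differed by 0.30 (interval 0.03 to 0.57, limma adjusted p = 0.479), with replicates 6 and 25 at 9.28 and 9.24 and replicates 31 and 3 near the WT arrays. Cdk6 differed by -0.01 with all arrays and by 0.21 without replicate 28 (interval 0.04 to 0.38, limma adjusted p = 0.468), since that library stood at 8.81 and the other 4 ENK KO arrays at 9.76 to 10.11. Without that library 3 of the 9 genes (Cdk2, Cdk6 and Ccne1) had an unadjusted p under 0.05, against 9.72% of all genes, and limma called 0 of the 9 at an adjusted p under 0.05, against 0.0147% of all genes.

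The remaining genes did not pass in spleen. Ccnd2 differed by 0.02 (95% interval -0.16 to 0.19), and by 0.09 without replicate 28 (-0.02 to 0.21). Ccnd3 differed by 0.0028 (-0.14 to 0.14), and by 0.03 without it (-0.11 to 0.17). Cdk4 differed by -0.14 (-0.36 to 0.09), and by -0.10 without it (-0.34 to 0.13). Cdkn1b differed by 0.10 (-0.10 to 0.30), and by 0.04 without it (-0.14 to 0.21). Cdkn2c differed by 0.03 (-0.16 to 0.23), and by 0.04 without it (-0.17 to 0.25), but all its spleen values lay under the filter level, so a difference there could not be seen. The widest intervals with all arrays were those of Cdk6 and Ccne1, at -0.46 to 0.43 and -0.26 to 0.53.

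In thymus limma also called 0 of the 9 genes, against 0.0147% of all genes, with 1 of the 9 (Ccnd3) at an unadjusted p under 0.05, against 3.53% of all genes. Ccnd3 was at 12.51 and 12.52 in ENK KO and at 12.11 to 12.36 in WT, a difference of 0.25 (SE 0.09, 95% interval 0.06 to 0.44, unadjusted p = 0.0149 and adjusted p = 1 in limma). Its arrays did not overlap, as those of 4.04% of all genes did not in the higher direction. Ccne2 differed by 0.25 (interval -0.21 to 0.70) and Ccne1 by 0.19 (-0.34 to 0.72). Without ENK KO replicate 29 the Ccne1 difference was -0.0011. Ccnd2, Cdk2, Cdk4, Cdk6, Cdkn1b and Cdkn2c differed by -0.07 to 0.06, with intervals no wider than those of Cdk6 at -0.55 to 0.67. These intervals draw on a spread shared with spleen, replicate 28 included. Without that library the thymus differences stayed the same, with intervals of -0.16 to 0.28 for Cdk6 and -0.16 to 0.54 for Ccne1. The second Cdkn1b probe set gave 0.23 in thymus, where the first gave -0.01, and neither passed.

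**Figure D4:**
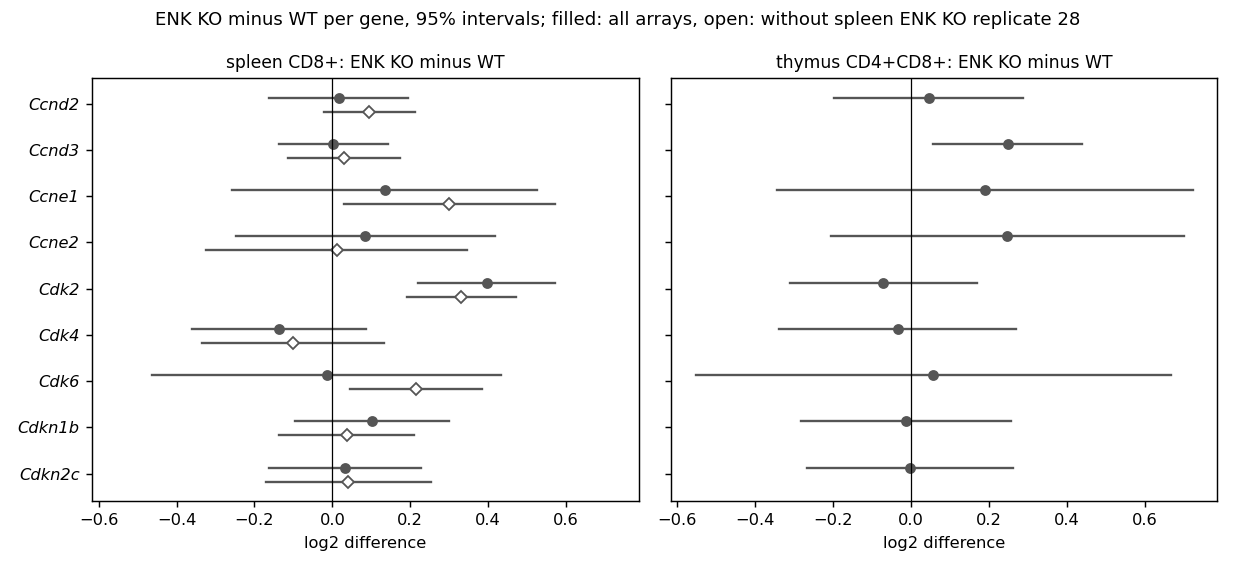
ENK KO minus WT log2 difference of the 9 genes in spleen CD8+ cells (left) and CD4+CD8+ thymocytes (right), with 95% intervals from limma. Filled points use all arrays. Open diamonds, drawn in the spleen panel only, leave out spleen ENK KO replicate 28. No gene had an adjusted p under 0.05, and Cdk2 in spleen (0.40) and Ccnd3 in thymus (0.25) are the genes whose intervals lie wholly above 0 with all arrays.

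The effect of ENK KO was also compared between the populations by an interaction term. Limma called 0 of the 9 genes, against 0.00733% of all genes, with 2 of the 9 (Cdk2 and Ccnd3) at an unadjusted p under 0.05, against 2.99% of all genes. The effect on Cdk2 was 0.47 larger in spleen than in thymus (SE 0.14, 95% interval 0.17 to 0.77, unadjusted p = 0.00488, adjusted p = 1) and 0.40 larger without replicate 28. That on Ccnd3 was 0.24 smaller in spleen (log2 -0.24, interval -0.48 to -0.0084, unadjusted p = 0.0435, adjusted p = 1), and its interval without replicate 28 was -0.45 to 0.016. The other 7 genes had interaction values of -0.16 to 0.12 with all arrays and of -0.24 to 0.16 without replicate 28, with intervals that span 0 in both. Among them, Ccne2 and Cdkn2c lay under the filter level on all spleen arrays. An ENK KO effect in spleen could not be seen for these genes, so their interaction cannot be judged.

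In the other lists of the pathway no gene passed the test of the ENK KO effect in either population or of its difference between them. In spleen 7 of 89 tested genes had an unadjusted p under 0.05: Mnat1 (0.16), Tfdp2 (0.18), Rbl2 (0.14), Ubac1 (0.20), Ambra1 (0.11), Tgfbr1 (0.22) and Mycn (-0.17). That is 7.87% of the 89, against 8.37% of all genes. Without replicate 28 there were again 7 of 89, not all the same genes, against 9.72% of all genes. Rbl2 then differed by 0.09 and Ambra1 by 0.08. Mycn had a spleen ENK KO mean of 6.63, under the filter level, and a spleen WT mean of 6.80, so background weighs on its difference. The remaining genes with the smallest p of each list were Cdkn2b (-0.08), Ccnh (0.06), Lin37 (0.09), Cks2 (-0.35), Stat5a (-0.16), Tnfrsf10b (-0.40), Zmat3 (0.09), Trp53inp1 (0.19), Cdt1 (-0.15), Cdk1 (0.09) and Mcm2 (-0.04). Their adjusted p in limma ran from 0.595 to 0.832, and without replicate 28 from 0.433 to 0.797.

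In thymus 13 of 15 S, G2 and M phase genes lay above 0 with a median of 0.29, 8 of them at an unadjusted p under 0.05, against 3.53% of all genes. Cdk1, the kinase of mitosis, differed by 0.61 (SE 0.15, limma adjusted p = 0.502), Top2a by 0.77 and the replication factor gene Mcm3 by 0.34. With the probe sets of Top2a averaged, its difference was 0.0073, and without ENK KO replicate 29 that of Mcm3 was 0.146. Cks1b differed by 0.32, E2f8 by 0.46, E2f7 by 0.16, Tfdp1 by 0.17, Dtl by 0.37 and Skp2 by 0.19. With 2 ENK KO arrays several of these rest on 1 of them. Leaving out 1 array at a time gave 0.0883 to 0.836 for E2f8, 0.0462 to 0.695 for Dtl and 0.0492 to 0.272 for E2f7, each lowest without replicate 29, and 0.0686 to 0.278 for Tfdp1, lowest without replicate 1. The other genes that lead their lists were Cdc25a (-0.25), Cdkn3 (-0.06), Ccng2 (0.12), Tgfbr1 (0.13), Ikzf1 (-0.06), Smad3 (-0.13), Mdm4 (0.11), Phlda3 (-0.06) and Ccng1 (-0.12). These stood beside the Ccnd3 and Ccne2 values above on the same 2 ENK KO arrays, and their part in them was not tested. Markers of early CD4-CD8- thymocytes (5 of 5 measured) also averaged 7.82 and 8.05 on the thymus ENK KO arrays, against 7.62 to 7.75 on the thymus WT arrays, and their part was likewise not tested.

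The genes leading their lists in the interaction were Cdk1 (-0.52), Ccna2 (-0.64, or -0.61 without replicate 28) and Cdc6 (-0.35) of the S, G2 and M phase list, and E2f8 (-0.50), E2f7 (-0.24) and Tfdp2 (0.29) of the E2F list. Next came Cks1b (-0.26), Ubac1 (0.22), Dtl (-0.46), Cdc25a (0.33), Mnat1 (0.12), Cdk7 (0.15), Klf4 (-0.40), Ikzf1 (0.09), Myc (-0.16), Ccng1 (0.17), Bbc3 (-0.10) and Tnfrsf10b (-0.39). The adjusted p of each was 1 in limma. Leaving out replicate 28 moved these values by at most 0.0943, the most for Tnfrsf10b, which then stood at -0.48. Without it Myc was at -0.08, Ikzf1 at 0.06 and Bbc3 at -0.07. Ccna2, E2f8 and Dtl had spleen means under the filter level, where background weighs on the signal and an ENK KO effect may not be seen. The ENK KO effect on E2f8 was 0.46 in thymus and -0.04 in spleen, and that on Dtl 0.37 and -0.09.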

How the data were processed

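RNA of sorted T cells (300 ng per sample, per the labels' protocols) was labelled with biotin and hybridised to 14 Affymetrix arrays. The authors deposited 1 table of log2 values, made with RMA per the submitters' processing notes. For the software version and build, the sources used here name none. Of 28213 probe sets, 21640 had 1 gene symbol, 1321 had several and 5252 had none. Probe sets with 1 symbol were kept, and for each of 19937 symbols the probe set of highest mean was used. A gene was tested if 2 or more arrays exceeded 6.76, the 40th percentile of the table, which left 13641 genes.

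Group means of all 14 arrays were fitted with limma 3.58.1 in R 4.3.3 (lmFit, eBayes with a trend), with Benjamini-Hochberg adjustment over all genes tested and a threshold of 0.05. The scripts were tested on simulated data. Arrays hold no counts, so the number of arrays limits the precision. All measured members are named in each comparison, and of each pathway list the 3 genes with the smallest p. Genes named because a count was 5 or fewer, Ccnd1 and the promoter motifs were chosen after values were seen. The members and lists were chosen with earlier results of these data known. Alternatives changed the filter, normalization, probe set, variance model, covariates and arrays used. Those by sex went by the labels, so spleen WT replicate 22 counted as female in them despite its transcripts. Where the spleen mean lay under the filter level, the fold was set against that level, a choice made after values were seen. Such genes were not left out of the counts of genes lower in spleen.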

Additional observations from a re-analysis of the deposited data

Results flagged for a closer look

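On 3 of 18 sets of arrays (9 genes in the 2 spleen groups, the groups with more than 3 samples), the highest or lowest array stood apart from the rest by Dixon's test, which chance does in about 1 set in 20. Cdk6 was at 8.81 on the library labelled spleen ENK KO replicate 28, with a gap of 0.731 of the group's range. Cdk6 was also lowest on spleen WT replicate 34, at 9.60, with a gap of 0.92 of the range. Cdkn2c was lowest on spleen WT replicate 37, at 6.39 and under the filter level, with a gap of 0.834 of the range.

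Cdk2 was picked out because every ENK KO array lay above the WT mean in spleen and below it in thymus. The interaction, spleen effect minus thymus effect, was 0.468, with an adjusted p of 1 in limma, so the difference between the populations did not pass the test.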

How the results depend on the processing

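The 135 single-gene values were recomputed under up to 31 alternatives, in 3858 values. Of these 3757 kept their direction and their side of the threshold, 14 lost the call, 0 gained one and 87 changed sign, 0 of them past the threshold in either fit. Counts of members called stayed within 1.5 times the reported count, at 0 of 9 for each ENK KO comparison under adjusted p. Calls of spleen against thymus were lost for Cdk6 with quantile normalization (-0.64 in ENK KO, adjusted p = 0.0509 in limma, and -0.55 in WT, adjusted p = 0.0598), in samples labelled male (-0.92 and -0.75) and without the 2-month-old animals (-0.92 in ENK KO), and for Cdk4 in ENK KO without the 2-month-old animals (0.23, or 0.29 without replicate 28 as well), beside the single arrays named above. Cdk2 in spleen, ENK KO minus WT, ranged over 0.27 to 0.45 with adjusted p of 0.239 to 0.767 in limma. With quantile normalization, the sign turned for Cdkn2c 0.00237 (thymus ENK KO minus WT), Ccnd3 -0.00396 (spleen ENK KO minus WT), Ccnd2 0.00457 (interaction). With median centring, the sign turned for Cdk6 0.0156 (spleen ENK KO minus WT), Ccnd2 0.00426 (interaction). With probe sets of 1 gene averaged, the sign turned for Cdkn1b 0.11 (thymus ENK KO minus WT). With array weights, the sign turned for Cdk4 0.0911 (thymus ENK KO minus WT), Ccnd3 -0.00191 and Cdk6 0.0922 (spleen ENK KO minus WT), Ccnd2 0.0435 and Cdk6 0.0744 (interaction). Without the 2-month-old animals, the sign turned for Ccnd2 -0.00197, Cdk4 0.0448, Cdkn1b 0.19 and Cdkn2c 0.016 (thymus ENK KO minus WT), Ccnd2 -0.0614 (spleen ENK KO minus WT), Cdkn1b -0.0862 (interaction), Ccne1 -0.19 (ENK KO spleen minus thymus). In samples labelled male, the sign turned for Ccnd2 -0.0355, Cdk2 0.00559, Cdk4 0.24, Cdk6 -0.0236 and Cdkn1b 0.19 (thymus ENK KO minus WT), Ccnd2 -0.0796, Trp53inp1 -0.094, Cdk1 -0.00431 and Mcm2 0.0286 (spleen ENK KO minus WT), Cdkn1b -0.0747 (interaction), Ccne1 -0.19 (ENK KO spleen minus thymus). With labelled sex as a covariate, the sign turned for Cdkn2c 0.00276 (thymus ENK KO minus WT), Ccnd3 -0.00297 (spleen ENK KO minus WT). With an age of 2 months as a covariate, the sign turned for Ccnd2 -0.0374, Cdk6 -0.12, Cdkn1b 0.0513 and Cdkn2c 0.025 (thymus ENK KO minus WT), Ccnd2 -0.0496 (spleen ENK KO minus WT). In spleen arrays alone and without replicate 28, the sign turned for Cdk6 0.21 (spleen ENK KO minus WT). Without the 2-month-old animals and replicate 28, the sign turned for Ccnd2 -0.00197, Cdk4 0.0448, Cdkn1b 0.19 and Cdkn2c 0.016 (thymus ENK KO minus WT), Cdk6 0.15 and Cdkn1b -0.0208 (spleen ENK KO minus WT), Ccnd2 0.0582, Cdk6 0.12, Cdkn1b -0.21 and Bbc3 0.041 (interaction). With the other Cdkn1b probe set, the sign turned for Cdkn1b 0.23 (thymus ENK KO minus WT). Without spleen replicates 28 and 22, the sign turned for Ccne2 -0.000586, Cdk6 0.23 and Mcm2 0.00315 (spleen ENK KO minus WT), Ccnd2 0.0313, Ccne1 0.11 and Cdk6 0.17 (interaction). Leaving out 1 array at a time turned the sign of these values, with ranges: In the thymus ENK KO minus WT comparison, Cdkn2c -0.15 to 0.16, Ccne1 -0.00106 to 0.38, Cdk4 -0.14 to 0.16, Cdk6 -0.0003 to 0.11, Ccnd2 -0.00197 to 0.0971, Cdkn1b -0.22 to 0.19. In the interaction, Cdkn2c -0.13 to 0.18, Ccne1 -0.25 to 0.14, Ccne2 -0.34 to 0.0104, Ccnd2 -0.0811 to 0.0495, Cdk4 -0.29 to 0.00906, Cdkn1b -0.0913 to 0.32, Cdk6 -0.17 to 0.16. In the ENK KO spleen minus thymus comparison, Ccne1 -0.0559 to 0.33. In the spleen ENK KO minus WT comparison, Ccnd3 -0.0444 to 0.0292, Ccne2 -0.0179 to 0.18, Cdk6 -0.11 to 0.21, Ccnd2 -0.0279 to 0.0942, Trp53inp1 -0.0426 to 0.34, Mcm2 -0.0852 to 0.00703. The causes were not tested. 4 alternatives were added after seeing the data: those that leave out 2 sets of arrays or fit spleen alone without replicate 28, and the other Cdkn1b probe set. No paired analysis was possible because the groups share no replicate number. Spleen values under the filter level make the folds of Ccne2, Cdkn2c, Ccna2, Dtl, Cdkn3 and E2f8 bounds against that level.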
